A study of Mus musculus with 8 samples.

Results

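The EGF-family ligands *Areg*, *Ereg*, *Hbegf*, *Tgfa*, *Btc* and *Epgn* and the receptors *Egfr*, *Erbb2* and *Erbb3* were examined in cultured mouse hepatoblasts with and without deletion of the Hippo kinases *Lats1* and *Lats2*. These 9 genes, 6 ligands and 3 receptors, were chosen by symbol from 23467 genes in the deposited table, and 8 of them passed the filter on low values. RNA was sequenced in 8 libraries made from cultures of E14.5 livers on a B6;129 mixed background. The control cells were labelled wild type, and the cells called L1L2_Alb carried a *Lats1* null allele and a floxed *Lats2* removed by Alb-cre (Lats1-/-;Lats2f/fl;Alb-cre). Alb-cre expresses Cre from the albumin promoter, which is active in hepatoblasts and hepatocytes. Undifferentiated hepatoblasts on collagen (iHBs) gave 1 control and 1 L1L2_Alb library. Cells given oncostatin M at 12.5 ng/ml for 5 days to become hepatocytes (iHPs), and cells kept on Matrigel for 14 days to become biliary epithelial cells (iBECs), each gave 1 control and 2 L1L2_Alb libraries. The time in oncostatin M is that of the labels, and the study's methods give it as a day longer. The study's hepatoblast medium contained added EGF in both genotypes, so a ligand of EGFR was supplied from outside. Whether EGF was kept during differentiation is not stated in the methods. Whether libraries with the same label were taken from separate embryos or cultures is not said in the labels, so their spread may be technical. The p-values measure this spread. Those for genotype or stage over all libraries also take in differences of the genotype effect between stages.

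The EGF family signals between neighbouring cells. Its ligands are made as membrane-anchored precursors, and ADAM proteases shed the active growth factor from the cell surface. The ligand joins ERBB receptors into pairs that activate the RAS-ERK and PI3K pathways. *Egfr* encodes the receptor for all 6 ligands examined here, *Erbb2* encodes a partner that binds no known ligand, and *Erbb3* encodes a neuregulin receptor with little kinase activity of its own that couples strongly to PI3K. In the liver these receptors drive hepatocyte and biliary proliferation during growth and regeneration, and amphiregulin, the product of *Areg*, is known in other tissues as a target of the Hippo effector YAP.

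The libraries held 18436865 to 33229075 reads. *Lats1* and *Lats2* RNA was not lower over the stages in the libraries labelled L1L2_Alb. *Lats1* ranged from 5.38 to 11.2 RPKM in controls and from 7.12 to 22.7 RPKM in those libraries, and *Lats2* from 6.90 to 10.1 RPKM and from 10.9 to 27.6 RPKM. RPKM scales the reads of a gene by its length and by the total of its library, so levels can be compared between genes. *Lats2* was higher, by 0.90 on the log2 scale (limma adjusted p = 0.0312), and *Lats1* differed by 0.44 (adjusted p = 0.46). A value over a whole gene can include exons outside the deleted part, so these values do not check the labels, and L1L2_Alb names a label throughout. The study itself reported reduced LATS1/2 expression in its L1L2_Alb cells. The YAP target genes *Ctgf* and *Cyr61* were higher in 5 of 5 libraries labelled L1L2_Alb than in the control of their stage, by 1.73 and 1.93 on the log2 scale (limma, adjusted p = 0.00796 and 0.00222). Hepatocyte and biliary markers did not sort by stage as the stage names would have it. *Alb* was higher in control iBEC than in control iHP (6162 against 3088 RPKM), *Krt7* was lower in control iBEC than in control iHB (62.3 against 399.6 RPKM), and *Cftr* was at most 0.206 RPKM in any library, while *Spp1* was highest in control iBEC, at 23271 RPKM, so iHP and iBEC name the culture and not a checked cell type.

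Of the 9 genes, *Hbegf* rose and *Erbb3* fell in cells labelled L1L2_Alb, and the other ligands and receptors did not pass the test. *Hbegf*, which encodes the heparin-binding ligand of EGFR and ERBB4, was 4.47-fold higher over the 3 stages and was above its control in every library labelled L1L2_Alb. *Erbb3* was at 0.381 times the control level and was below its control in every library labelled L1L2_Alb, but its call was close to the threshold and was lost under most alternatives. The genotypes were compared with limma on log2(RPKM + 1) in a model that held a term for the stage, with p-values adjusted over all 13421 genes tested, and a fold change on this scale understates the change of genes with low values. The test called 1284 genes in all, 9.57% of those tested (6.2% higher and 3.37% lower), and 2 of the 8 genes of this family that were tested, 1 in each direction. At an unadjusted p under 0.05, 3 of the 8 passed, against 26.3% of all genes, and 2 of the 8 moved in the same direction in all 5 libraries labelled L1L2_Alb, against 33% of all genes. The median log2 difference was -0.11 over the 8 genes and 0.06 over all genes tested.

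*Hbegf* had 26.3 RPKM in control and 148 RPKM in L1L2_Alb iHB. In iHPs the control had 23.2 RPKM and the L1L2_Alb cultures 93.6 and 144 RPKM. In iBECs the control had 9.16 RPKM and the L1L2_Alb cultures 38.1 and 32.4 RPKM. The lowest library labelled L1L2_Alb, an iBEC culture, was above the highest control, an iHB culture, so the genotypes did not overlap, as held for 9.18% of all genes in this direction. The values rested on 723 to 10104 reads a library. The log2 difference was 2.45 in iHB, 1.97 and 2.58 in iHP, and 1.94 and 1.72 in iBEC, and *Hbegf* was at least 2-fold higher in every library labelled L1L2_Alb of each stage, as held for 5.6% of all genes in iHB, 4.64% in iHP and 4.19% in iBEC. Over the stages it was 2.16 (standard error 0.207, 95% interval 1.69 to 2.64, limma adjusted p = 0.00149), which ranked 43 by p among all genes. It stayed between 2.01 and 2.35, with an adjusted p of 0.00125 to 0.0174, under each of 15 alternatives.

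Markers of other cells that a liver culture can hold were examined beside *Hbegf*. In bulk RNA, more cells of a type and more RNA per cell cannot be told apart. *Msln*, which encodes the mesothelial surface protein mesothelin, rose in cells labelled L1L2_Alb by 3.61 on the log2 scale (limma adjusted p = 9.3e-04). It was called out of 3 mesothelial markers tested of 4 fixed, while *Wt1* differed by 0.93 (adjusted p = 0.0594), *Upk3b* by 0.53 (adjusted p = 0.528), and *Lrrn4* was at most 0.334 RPKM and at 0 in 4 libraries. The summed level of these markers was 109 to 268 RPKM in controls and 1054 to 3545 RPKM in libraries labelled L1L2_Alb. Nearly all of that sum was *Msln*, at 103 to 261 RPKM and 1032 to 3536 RPKM, so it does not describe the other markers. The mesenchymal markers tested, 9 of 10 fixed, had no call and a median log2 difference of -1.02. Of these, 6 had an unadjusted p under 0.05, against 26.3% of all genes, each with a negative difference, and the collagen gene *Col1a1* was called lower with quantile normalization (log2 difference -1.24, limma adjusted p = 0.0246). The mesenchymal markers had a summed level of 2659 to 4653 RPKM in controls and 740 to 3725 RPKM in libraries labelled L1L2_Alb. The macrophage and leukocyte markers tested, 6 of 8 in the table, had no call either and 1, *Ptprc*, with an unadjusted p under 0.05, with summed levels of 1137 to 2045 and 661 to 2686 RPKM and *Cd3e* at 0 in every library. The part of these cells in the *Hbegf* values was not tested.

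**Figure D1:**
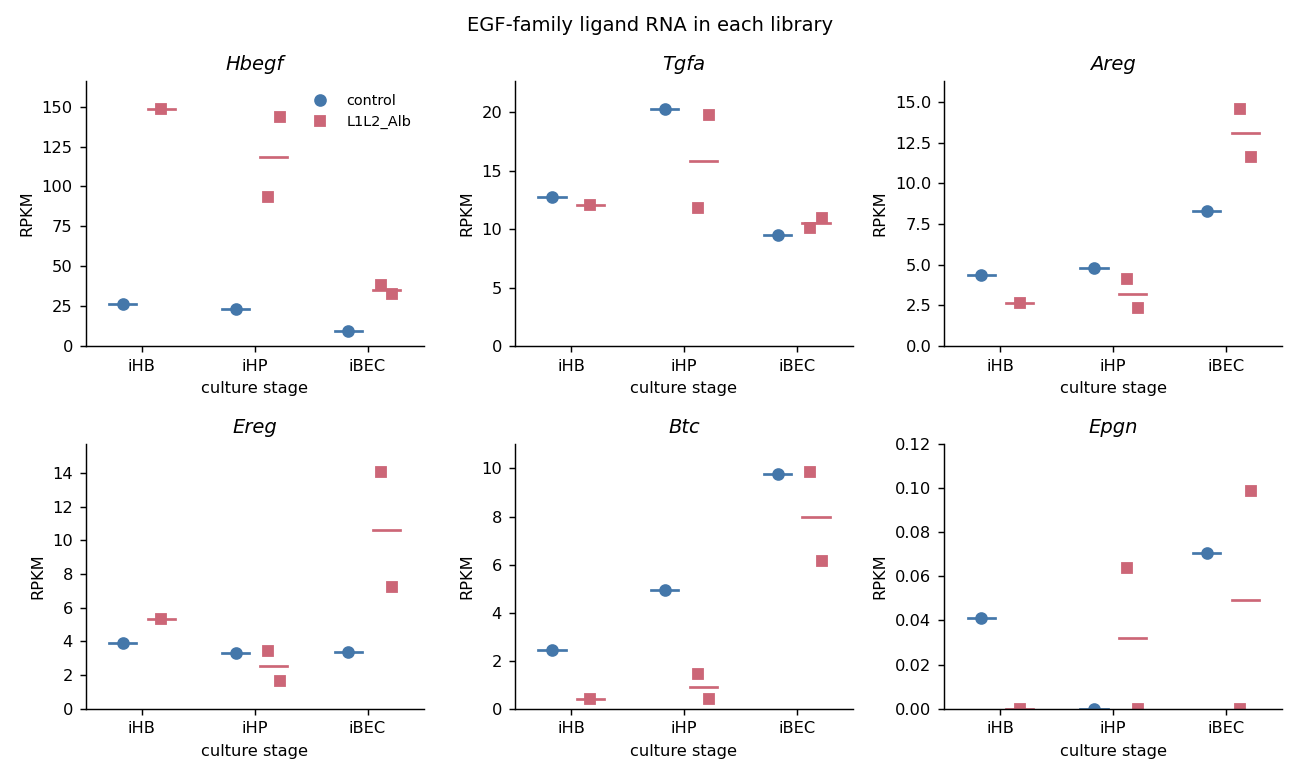
RNA level of each ligand (RPKM, linear axes that differ between panels) in each of the 8 libraries, by culture stage, for control (blue circles) and L1L2_Alb (red squares). Short lines mark the mean of a condition. *Hbegf* was above its control in all 5 libraries labelled L1L2_Alb, *Areg* and *Ereg* had their highest values in L1L2_Alb iBECs, and *Epgn* stayed below 0.1 RPKM.

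*Tgfa*, which encodes transforming growth factor alpha, stayed between 9.50 and 20.2 RPKM. It had 12.7 and 12.0 RPKM in control and L1L2_Alb iHB, 20.2 RPKM in control iHP beside 11.8 and 19.8 RPKM in L1L2_Alb iHPs, and 9.50 RPKM in control iBEC beside 10.1 and 10.9 RPKM in L1L2_Alb iBECs. The genotypes overlapped, and the 2 L1L2_Alb iHP libraries lay further from each other than the genotypes did in iHB or iBEC. The log2 difference over the stages was -0.11 (standard error 0.215, 95% interval -0.60 to 0.38, limma adjusted p = 0.80), so an effect as large as that of *Hbegf* lay outside its interval.

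*Areg* had 4.40 and 2.65 RPKM in control and L1L2_Alb iHB, 4.80 RPKM in control iHP beside 4.12 and 2.31 RPKM in L1L2_Alb iHPs, and 8.31 RPKM in control iBEC beside 14.53 and 11.6 RPKM in L1L2_Alb iBECs. The libraries labelled L1L2_Alb were below their control in iHB and iHP and above it in iBEC, where the median of all genes was itself shifted upwards by 0.25 on the log2 scale. The log2 differences of *Areg* in the iBEC libraries, 0.74 and 0.44, were above that shift. Over the stages *Areg* differed by -0.12 (standard error 0.283, 95% interval -0.77 to 0.53, limma adjusted p = 0.837). The sign of that value turned without either iHB library, without control iHP or without L1L2_Alb iHP replicate 2, in a range of -0.53 to 0.094 when each library was left out.

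*Ereg*, which encodes epiregulin, a low-affinity ligand of EGFR and ERBB4, had 3.92 and 5.33 RPKM in control and L1L2_Alb iHB. It had 3.31 RPKM in control iHP beside 3.46 and 1.68 RPKM in L1L2_Alb iHPs, and 3.38 RPKM in control iBEC beside 14.1 and 7.22 RPKM in L1L2_Alb iBECs. The high values were those of the L1L2_Alb iBEC libraries, and the other 6 libraries overlapped between genotypes. *Ereg* differed over the stages by 0.47 (standard error 0.367, 95% interval -0.37 to 1.32, limma adjusted p = 0.472, higher in 4 of 5 libraries), and by -0.027 without control iBEC.

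*Btc*, which encodes betacellulin, went the other way from *Hbegf* in iHB and iHP. It had 2.43 and 0.424 RPKM in control and L1L2_Alb iHB, 4.93 RPKM in control iHP beside 1.43 and 0.392 RPKM in L1L2_Alb iHPs, and 9.75 RPKM in control iBEC beside 9.85 and 6.14 RPKM in L1L2_Alb iBECs. The 3 libraries labelled L1L2_Alb of iHB and iHP were the lowest of the 8, and in iBECs 1 library was at the level of the control. *Btc* and *Erbb3* were at least 2-fold lower in every library labelled L1L2_Alb of iHB and of iHP, as held for 8.99% and 8.26% of all genes, and no gene of the family was in iBECs, where 1.62% of all genes were. *Egfr* was at least 2-fold higher in iHB. The lowest values rested on 24 and 35 reads, with exact Poisson 95% intervals of 0.251 to 0.583 RPKM and 0.295 to 0.590 RPKM, so counting error alone did not span the gap to the controls of those stages. These intervals cover counting error only. Over the stages *Btc* differed by -1.07 (standard error 0.333, 95% interval -1.83 to -0.30, limma adjusted p = 0.0834, lower in 4 of 5 libraries), which missed the threshold. Without control iBEC it passed, at -1.51 (limma adjusted p = 0.0269), and in the other 13 alternatives it did not.

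*Epgn*, which encodes epigen, gave at most 2 reads in any library. It was listed at 0 in L1L2_Alb iHB, control iHP, L1L2_Alb iHP replicate 2 and L1L2_Alb iBEC replicate 1, and its highest value was 0.0985 RPKM in L1L2_Alb iBEC replicate 2. All of these were under the floor of 3 reads, which stood for 0.106 to 0.191 RPKM, so *Epgn* was not detectable at this depth and was not tested.

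*Egfr* was the most abundant receptor of the 3 in every library. It had 43.5 and 105 RPKM in control and L1L2_Alb iHB, 96.3 RPKM in control iHP beside 90.9 and 78.4 RPKM in L1L2_Alb iHPs, and 111 RPKM in control iBEC beside 43.9 and 64.7 RPKM in L1L2_Alb iBECs. Cells labelled L1L2_Alb were thus above the control in iHB, close below it in iHP and well below it in iBEC, with log2 differences of 1.25 in iHB, -0.08 and -0.29 in iHP, and -1.32 and -0.77 in iBEC. The difference over the stages was -0.11 (standard error 0.363, 95% interval -0.94 to 0.72, limma adjusted p = 0.889). The difference of the genotype effect between stages had the smallest p of the 8 genes for *Egfr*, at 0.0166 by limma's moderated F test, and did not pass after adjustment (adjusted p = 0.653). At an unadjusted p under 0.05 this test passed 2 of the 8, *Egfr* and *Erbb3*, against 5.46% of all genes, and after adjustment 0 of all genes. The sign of the common value turned without control iBEC, where it reached 0.43, and without L1L2_Alb iBEC replicate 1, where it was 0.07. The table's values of *Egfr* did not reduce to whole reads over a single gene length, unlike those of the other 8 genes.

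*Erbb2* had 11.7 and 12.8 RPKM in control and L1L2_Alb iHB, 9.62 RPKM in control iHP beside 13.8 and 7.25 RPKM in L1L2_Alb iHPs, and 6.73 RPKM in control iBEC beside 8.67 and 10.5 RPKM in L1L2_Alb iBECs. The L1L2_Alb iHP libraries lay on both sides of their control and spanned the whole range of the other libraries but for control iBEC. The log2 difference over the stages was 0.22 (standard error 0.235, 95% interval -0.32 to 0.75, limma adjusted p = 0.622).

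*Erbb3* had 24.6 and 4.05 RPKM in control and L1L2_Alb iHB, 36.4 RPKM in control iHP beside 7.87 and 13.8 RPKM in L1L2_Alb iHPs, and 24.2 RPKM in control iBEC beside 22.1 and 15.7 RPKM in L1L2_Alb iBECs. Every library labelled L1L2_Alb was below every control, as held for 3.7% of all genes in this direction. The L1L2_Alb iBEC libraries lay nearer to their control than those of iHB and iHP did to theirs. The log2 differences were -2.34 in iHB, -2.08 and -1.34 in iHP, and -0.13 and -0.59 in iBEC. Over the stages *Erbb3* differed by -1.39 (standard error 0.36, 95% interval -2.22 to -0.56, limma adjusted p = 0.0487, lower in 5 of 5 libraries). The effect in iBECs was not shown to differ from that in the other stages (limma F test, adjusted p = 0.896). The call was lost in 10 of 15 alternatives, among them leaving out control iHB (adjusted p = 0.21), L1L2_Alb iHB (0.208), control iHP (0.286), L1L2_Alb iHP replicate 1 (0.0899), L1L2_Alb iHP replicate 2 (0.0667) or L1L2_Alb iBEC replicate 2 (0.0888), and the direction was kept in all 15, between -1.98 and -1.03.

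Some hepatocyte markers fell over the stages, as *Erbb3* did. Of 6 tested, *Alb*, *Ttr*, *Serpina1a* and *Hnf4a* fell, against 3.37% of all genes called lower, and the median log2 difference was -1.52. *Apoa1* and *Afp* differed by 0.65 and 0.07 and did not pass (limma adjusted p = 0.35 and 0.914). Quantile normalization took away the calls of *Alb* (adjusted p = 0.107) and *Serpina1a* (0.106). The summed level of the 6 markers, which *Apoa1* and *Afp* dominated in several libraries, was 12039 to 17202 RPKM in controls and 10320 to 13546 RPKM in libraries labelled L1L2_Alb. *Hnf4a*, the hepatocyte transcription factor, was at 48.4, 64.4 and 99.5 RPKM in control iHB, iHP and iBEC and at 20.2 to 45.6 RPKM in libraries labelled L1L2_Alb. In iBECs *Erbb3* had 24.2 RPKM in the control beside 22.1 and 15.7 RPKM in L1L2_Alb libraries, and *Hnf4a* 99.5 beside 35.4 and 45.6 RPKM. There *Ttr* had 371 beside 106 and 112 RPKM, *Alb* 6162 beside 5499 and 3357 RPKM, and *Serpina1a* 5386 beside 2423 and 4100 RPKM. The part of the hepatocyte share of the cultures in the *Erbb3* values was not tested.

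**Figure D2:**
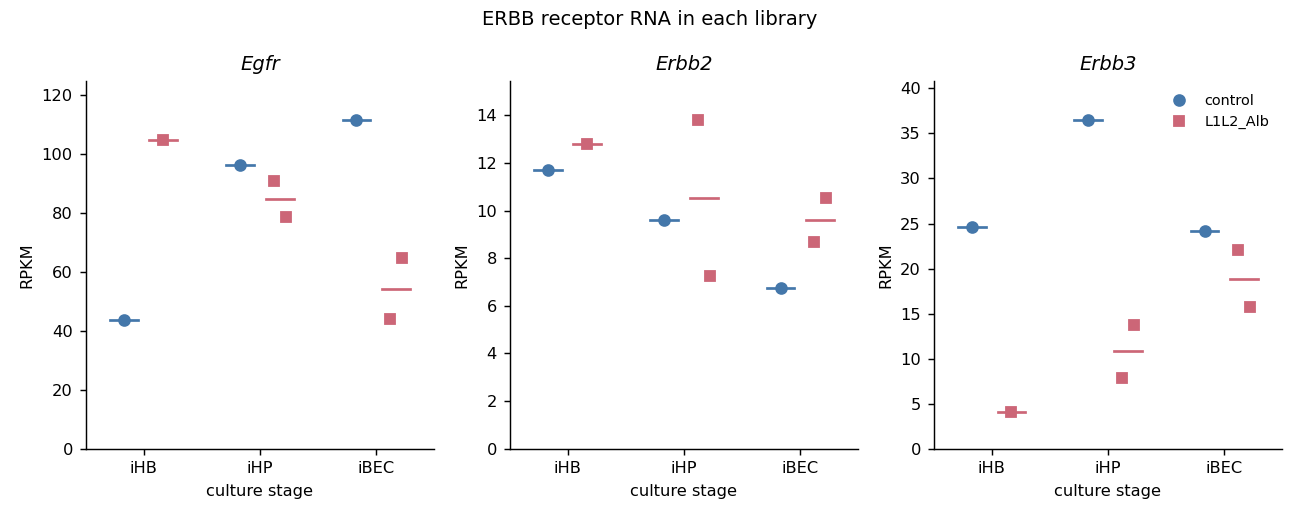
RNA level of each receptor (RPKM, linear axes that differ between panels) in each of the 8 libraries, by culture stage, for control (blue circles) and L1L2_Alb (red squares), with short lines at the mean of a condition. *Egfr* was above its control in L1L2_Alb iHB and below it in L1L2_Alb iBECs, and *Erbb3* was lowest in L1L2_Alb iHB, at 4.05 RPKM.

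**Figure D3:**
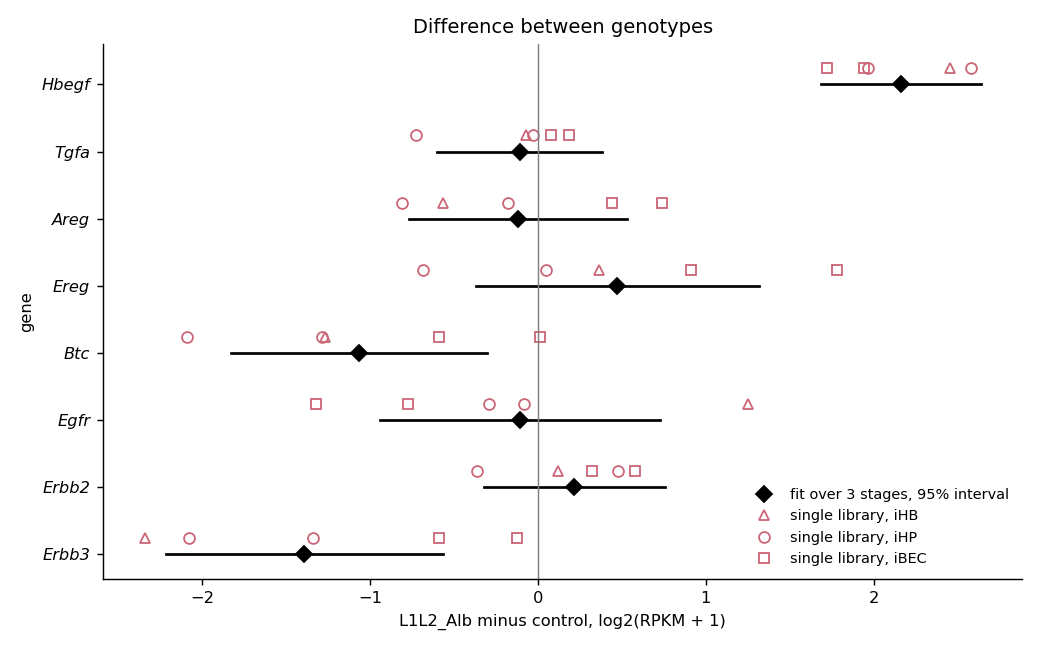
Difference of log2(RPKM + 1) between L1L2_Alb and control for the 8 genes tested. Black diamonds with lines give the limma estimate over the 3 stages with its 95% interval, and open symbols give each library labelled L1L2_Alb against the single control of its stage. The interval lay above 0 for *Hbegf* and below 0 for *Erbb3* and *Btc*, of which *Btc* did not pass after adjustment over all genes.

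The make-up of the ligand RNA was described by shares of the summed level, with no test. The summed RPKM of the 6 ligands was 49.8 in control iHB, 56.5 in control iHP and 40.2 in control iBEC, and in libraries labelled L1L2_Alb it was 169 in iHB, 115 and 168 in iHP, and 86.6 and 68.4 in iBEC. *Hbegf* made up 52.8% of that sum in control iHB, 41.1% in control iHP and 22.8% in control iBEC, and 87.9%, 81.7% and 85.6%, and 44.0% and 47.4% in the libraries labelled L1L2_Alb of the same stages. The libraries labelled L1L2_Alb had the larger sum and the larger *Hbegf* share in each stage. *Areg*, *Ereg* and *Btc* together made up 53.4% of the sum in control iBEC and 44.4% and 36.5% in L1L2_Alb iBECs, against 2.61% to 7.87% in L1L2_Alb iHB and iHPs. In these terms control iBECs carried mostly *Areg*, *Ereg* and *Btc* RNA, and L1L2_Alb iHBs and iHPs mostly *Hbegf* RNA.

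The balance of the receptors was described likewise. *Egfr* RNA was 1.77 times *Erbb3* RNA in control iHB and 25.9 times in L1L2_Alb iHB, 2.64 times in control iHP against 11.6 and 5.69 times, and 4.60 times in control iBEC against 1.99 and 4.12 times. The ratio was above the control in iHB and iHP and below it in both iBEC libraries. These ratios are descriptions, with 1 control library a stage.

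**Figure D4:**
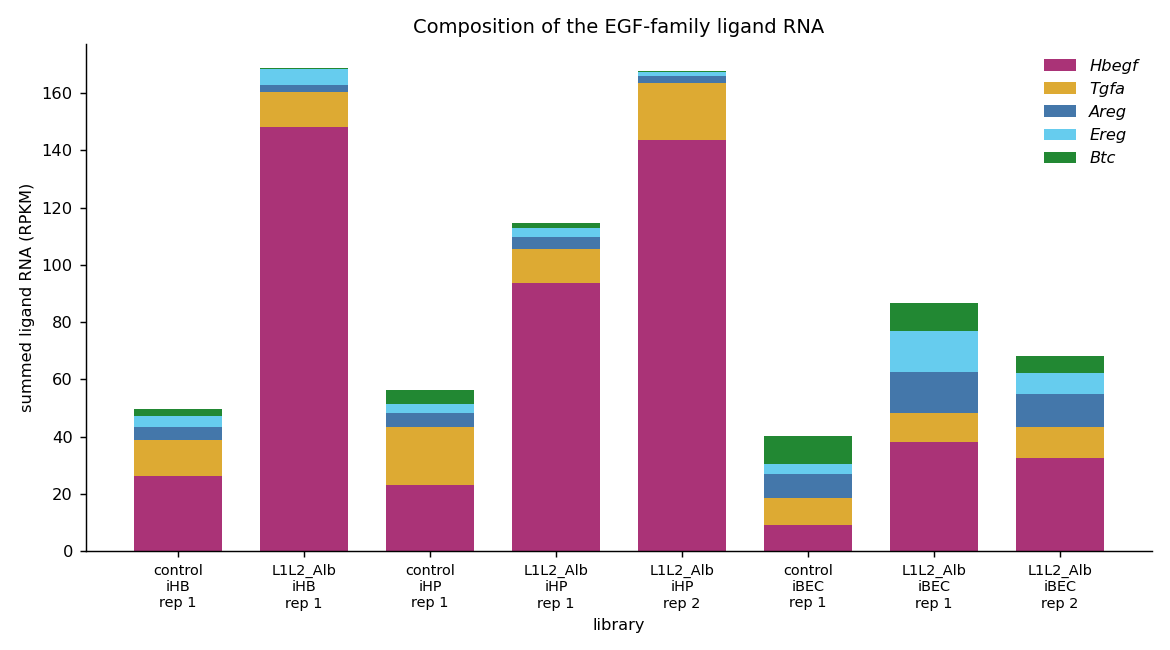
Summed RNA of the EGF-family ligands (RPKM) in each library, stacked by gene from *Hbegf* at the bottom to *Btc* at the top. *Epgn*, below 0.1 RPKM everywhere, is not drawn. The tallest bars, 169 and 168 RPKM, were L1L2_Alb iHB and L1L2_Alb iHP replicate 2, and *Areg*, *Ereg* and *Btc* took their largest share, 53.4%, in control iBEC.

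Culture stage was compared next, over both genotypes in the same fit. In iBECs against iHBs, *Areg* and *Btc* were higher and *Hbegf* was lower, 3 of the 8 genes, where 5.72% of all genes passed (2.94% higher and 2.78% lower). *Btc* rose by 2.27 on the log2 scale (standard error 0.416, limma adjusted p = 0.019), *Areg* by 1.48 (standard error 0.353, adjusted p = 0.0492), and *Hbegf* fell by 1.79 (standard error 0.258, adjusted p = 0.0068). The other 5 genes differed by -0.51 to 1.14 and did not pass, the last of these being *Erbb3* (limma adjusted p = 0.169). At an unadjusted p under 0.05, *Erbb3* and the 3 called genes passed, 4 of the 8, against 25% of all genes. With 2 iHB libraries, each carried much weight. Without control iHB the limma adjusted p was 0.158 for *Areg*, 0.128 for *Btc* and 0.0539 for *Hbegf*, and without L1L2_Alb iHB 0.475, 0.264 and 0.17. The *Areg* call was also lost without control iHP (0.0556), L1L2_Alb iHP replicate 1 (0.0742), L1L2_Alb iBEC replicate 1 (0.123) or L1L2_Alb iBEC replicate 2 (0.116), and the *Btc* call without L1L2_Alb iBEC replicate 2 (0.0542), and *Erbb3* passed without control iBEC (0.0362).

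In iHPs against iHBs none of the 8 genes passed limma, at an adjusted or at an unadjusted p under 0.05, and 0% of all genes did, with 8.63% at an unadjusted p under 0.05. The log2 differences lay between -0.66 for *Ereg* and 0.81 for *Erbb3* (limma adjusted p = 0.758 and 0.682). Both stage comparisons use the same iHB libraries.

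Between L1L2_Alb iBECs and L1L2_Alb iHPs, the only conditions with 2 libraries each, the ligands split. *Areg* was higher in iBECs by 1.77 on the log2 scale (standard error 0.342, limma adjusted p = 0.0414) and *Btc* by 2.26 (standard error 0.394, adjusted p = 0.0323), while *Hbegf* fell by 1.69 (standard error 0.319, adjusted p = 0.0386). These were 3 of the 8 genes, against 3.67% of all genes (3.16% higher and 0.507% lower). *Ereg* was 1.69 higher on the log2 scale and missed the threshold (standard error 0.418, adjusted p = 0.0792), with both iBEC libraries, at 14.1 and 7.22 RPKM, above both iHP libraries, at 3.46 and 1.68 RPKM. These 4 ligands were the genes of the 8 with an unadjusted p under 0.05, against 18.8% of all genes. No receptor passed (*Erbb3* 0.78, *Egfr* -0.65, *Erbb2* -0.07, limma adjusted p = 0.304, 0.326 and 0.948). Each of the 3 calls was lost without any 1 of the 4 libraries, with adjusted p of 0.0815 to 0.379. Summed macrophage and leukocyte markers were at 661 and 1243 RPKM in these iHP libraries and at 2485 and 2686 RPKM in the iBEC libraries, and summed mesenchymal markers at 740 and 1196 RPKM against 3725 and 1672 RPKM, and their part in the ligand values was not tested.

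*Areg*, *Ereg*, *Btc* and *Epgn* lie next to each other on chromosome 5, in the order *Epgn*, *Ereg*, *Areg*, *Btc* among the protein-coding genes of RefSeq. Their start regions are of interest because *Areg* and *Btc* were the ligands that were higher in iBECs. RefSeq start regions were held for 6 of the 9 genes (*Epgn*, *Areg*, *Btc*, *Tgfa*, *Egfr* and *Erbb2*) and not for *Ereg*, *Hbegf* or *Erbb3*. The 250 bases before the start, from build GRCm38.p6, are printed for *Areg* at chr5:91139349-91139598 on the plus strand and *Btc* at chr5:91402995-91403244 on the minus strand, 5′ to 3′ along the gene. They were searched on both strands for the TEAD core GGAATG, the AP-1 site TGANTCA and the cAMP response element TGACGTCA. Capitals mark a match.
Areg: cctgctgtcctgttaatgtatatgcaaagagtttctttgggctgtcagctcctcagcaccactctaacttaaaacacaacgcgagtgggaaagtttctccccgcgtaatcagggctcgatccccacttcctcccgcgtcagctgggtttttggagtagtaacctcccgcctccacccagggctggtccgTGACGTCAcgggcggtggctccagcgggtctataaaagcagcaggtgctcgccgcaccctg
Btc: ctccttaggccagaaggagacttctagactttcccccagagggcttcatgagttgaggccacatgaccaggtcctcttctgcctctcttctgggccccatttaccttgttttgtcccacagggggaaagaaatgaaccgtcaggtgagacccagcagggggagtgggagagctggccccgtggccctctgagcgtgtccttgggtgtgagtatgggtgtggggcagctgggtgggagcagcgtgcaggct
*Areg* held the letters of a cAMP response element, starting 61 bases before the transcription start, and the *Btc* region held none of the 3 motifs. Of 32851 start regions of this length, 1.55% held TGACGTCA, 12.6% GGAATG and 6.75% TGANTCA. Among the other 4 regions, that of *Erbb2* held GGAATG, 88 bases before the start, and *Epgn*, *Tgfa* and *Egfr* held no match. These are matches of letters and not measured binding sites.

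The neighbours of these 4 ligands on chromosome 5 had patterns of their own. *Parm1*, the next gene after *Btc*, which encodes a membrane mucin-like protein, was at 53.7, 58.9 and 19.96 RPKM in control iHB, iHP and iBEC and at 688 RPKM in L1L2_Alb iHB, 526 and 468 RPKM in L1L2_Alb iHPs, and 111 and 184 RPKM in L1L2_Alb iBECs. It was higher than the control in every library labelled L1L2_Alb, whereas *Btc* was higher in 1 and *Areg* in 2 of the 5. *Mthfd2l*, on the other side of *Epgn*, stayed between 0.821 and 2.67 RPKM.

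The genes whose level over the 8 libraries was most like that of *Hbegf*, by Pearson correlation of log2(RPKM + 1), were *Smim14* (r = 0.993), *Plekhg2* (r = 0.990) and *Il10rb* (r = 0.990). Those most like *Erbb3* were *Onecut1* (r = 0.997), which encodes the liver transcription factor HNF6, *Col18a1* (r = 0.991) and *Sntb1* (r = 0.982). *Onecut1* was at 10.4, 15.9 and 9.72 RPKM in control iHB, iHP and iBEC, at 1.11 RPKM in L1L2_Alb iHB, at 2.32 and 5.20 RPKM in L1L2_Alb iHPs and at 8.90 and 6.74 RPKM in L1L2_Alb iBECs. Like *Erbb3*, it was low in L1L2_Alb iHB and iHPs and nearer to the control in L1L2_Alb iBECs. These correlations are descriptions, over libraries that share genotype and stage.

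The rest of the pathway was taken from fixed lists. They were chosen with earlier results of these data known, so a share above that of all genes does not test a list. Of the neuregulins, *Egf* and *Erbb4*, 2 of 6 genes passed the filter on low values. *Nrg4*, which encodes a neuregulin that binds ERBB4, had 11.4 and 8.88 RPKM in control and L1L2_Alb iHB, 15.1 RPKM in control iHP beside 6.41 and 7.23 RPKM in L1L2_Alb iHPs, and 48.2 RPKM in control iBEC beside 25.0 and 27.5 RPKM in L1L2_Alb iBECs. It was lower than its control in 5 of 5 libraries labelled L1L2_Alb and fell by 0.78 on the log2 scale (standard error 0.187, limma adjusted p = 0.0369). The call was lost in 9 of 15 alternatives, among them leaving out any 1 library but L1L2_Alb iHP replicate 2, with an adjusted p of up to 0.311 without control iHP. *Erbb4* was at most 0.033 RPKM in any library and *Nrg3* was at 0 in all 8, so of the receptors of this family *Egfr*, *Erbb2* and *Erbb3* were those detected above 0.1 RPKM. *Nrg1* differed by -0.58 and did not pass (limma adjusted p = 0.24).

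Of 11 genes for ligand shedding, *Adam9* alone passed, a share near the 9.57% called over all genes. *Adam9*, a membrane metalloprotease that can shed the *Hbegf* product, had 100.6 and 223 RPKM in control and L1L2_Alb iHB, 94.5 RPKM in control iHP beside 228 and 351 RPKM in L1L2_Alb iHPs, and 118 RPKM in control iBEC beside 131 and 216 RPKM in L1L2_Alb iBECs. All libraries labelled L1L2_Alb were above all controls, as held for 9.18% of all genes in this direction. The log2 difference was 1.07 (standard error 0.277, limma adjusted p = 0.0485). The call was lost in 11 of 15 alternatives, among them upper-quartile scaling (adjusted p = 0.0894), quantile normalization (0.0675) and leaving out either iHB library (0.18 each), any 1 iHP library (0.353 without the control) or L1L2_Alb iBEC replicate 2 (0.101). *Adam17*, the main sheddase of the family, differed by 0.13 (limma adjusted p = 0.755) and stayed between 19.4 and 34.0 RPKM. *Timp3*, an inhibitor of these proteases, differed by -1.07 (limma adjusted p = 0.054) and passed with upper-quartile scaling (0.036) and quantile normalization (0.0287), lower than its control in 4 of 5 libraries. The median of the list was 0.13.

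Of 14 genes tested that restrain or recycle the receptors, none passed limma, where 9.57% of all genes did. At an unadjusted p under 0.05, 1 passed, *Lrig1*, at 0.028, against 26.3% of all genes. The largest difference was that of *Errfi1*, which encodes the EGFR inhibitor MIG6, at 0.56 (standard error 0.298, limma adjusted p = 0.279). *Errfi1* had 73.2 and 187 RPKM in control and L1L2_Alb iHB, 141 RPKM in control iHP beside 246 and 137 RPKM in L1L2_Alb iHPs, and 176 RPKM in control iBEC beside 249.6 and 157 RPKM in L1L2_Alb iBECs. In both differentiated stages 1 library was above and 1 below the control. The median of the list was 0.08, beside 0.06 over all genes tested.

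ERK-induced feedback inhibitors included 3 genes that rose among 9 tested, with a median log2 difference of 0.36, and none that fell, beside 6.2% of all genes called higher, 3.37% called lower and a median of 0.06 over all genes. *Dusp5*, a nuclear ERK phosphatase, had 13.6 and 64.6 RPKM in control and L1L2_Alb iHB, 17.7 RPKM in control iHP beside 49.4 and 49.2 RPKM in L1L2_Alb iHPs, and 10.6 RPKM in control iBEC beside 48.0 and 41.4 RPKM in L1L2_Alb iBECs. It rose by 1.83 on the log2 scale (standard error 0.185, limma adjusted p = 0.0019) and passed in 15 of 15 alternatives. *Dusp6*, the cytoplasmic ERK phosphatase, rose by 1.02 (adjusted p = 0.0262), and *Spry2*, a Sprouty inhibitor of receptor tyrosine kinase signalling, by 1.06 (adjusted p = 0.0329). Upper-quartile scaling of the libraries took both calls away (adjusted p = 0.0537 and 0.0528), and quantile normalization took that of *Spry2* (0.0511). Both were also lost without either iHB library, control iHP (0.176 and 0.194) or L1L2_Alb iBEC replicate 2, and that of *Spry2* without L1L2_Alb iHP replicate 1 (0.0676). *Spry1* and *Spry4* differed by -0.52 and -0.19 and did not pass.

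Among 12 genes known to respond to ERK, 4 rose and none fell, with a median log2 difference of 0.49, beside the same 6.2% higher, 3.37% lower and median of 0.06 over all genes. *Epha2* and *Epha4*, which encode ephrin receptors, rose by 2.10 (limma adjusted p = 0.00329) and 2.27 (adjusted p = 0.00225), the AP-1 subunit *Fos* by 1.42 (adjusted p = 0.0055) and *Phlda1* by 1.04 (adjusted p = 0.0162). Each was higher than its control in 5 of 5 libraries labelled L1L2_Alb, and these 4 passed under both other scalings of the libraries. Without control iHP the calls of *Fos* (limma adjusted p = 0.0504) and *Phlda1* (0.133) were lost, and that of *Phlda1* also without control iHB (0.0946) or L1L2_Alb iHB (0.0975). *Epha2* was at 37.6, 28.4 and 30.1 RPKM in control iHB, iHP and iBEC and at 76.3 to 209 RPKM in libraries labelled L1L2_Alb. The ETS genes *Etv4* and *Etv5* differed by -0.03 and -0.16, and *Egr1* by -0.82, and none of these passed (limma adjusted p = 0.955, 0.699 and 0.26). The 4 genes that rose are also induced by other pathways.

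Of 18 adaptors, RAS-ERK kinases and PI3K subunits tested, 1 rose and 1 fell, a share near the 9.57% called over all genes, and the median log2 difference was 0.11. *Pik3cb*, a catalytic PI3K subunit, rose by 0.79 (limma adjusted p = 0.0333). *Pik3r1*, the regulatory subunit, was at 12.0 to 12.4 RPKM in the controls and 5.16 to 7.60 RPKM in libraries labelled L1L2_Alb and fell by 0.77 (adjusted p = 0.0391). The call of *Pik3r1* was lost without any 1 library but L1L2_Alb iHP replicate 2, and that of *Pik3cb* without any 1 but that library and L1L2_Alb iBEC replicate 1, with the highest adjusted p without control iHP (0.283 and 0.234). The ERK kinase gene *Mapk3* differed by 0.07 and did not pass.

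**Figure D5:**
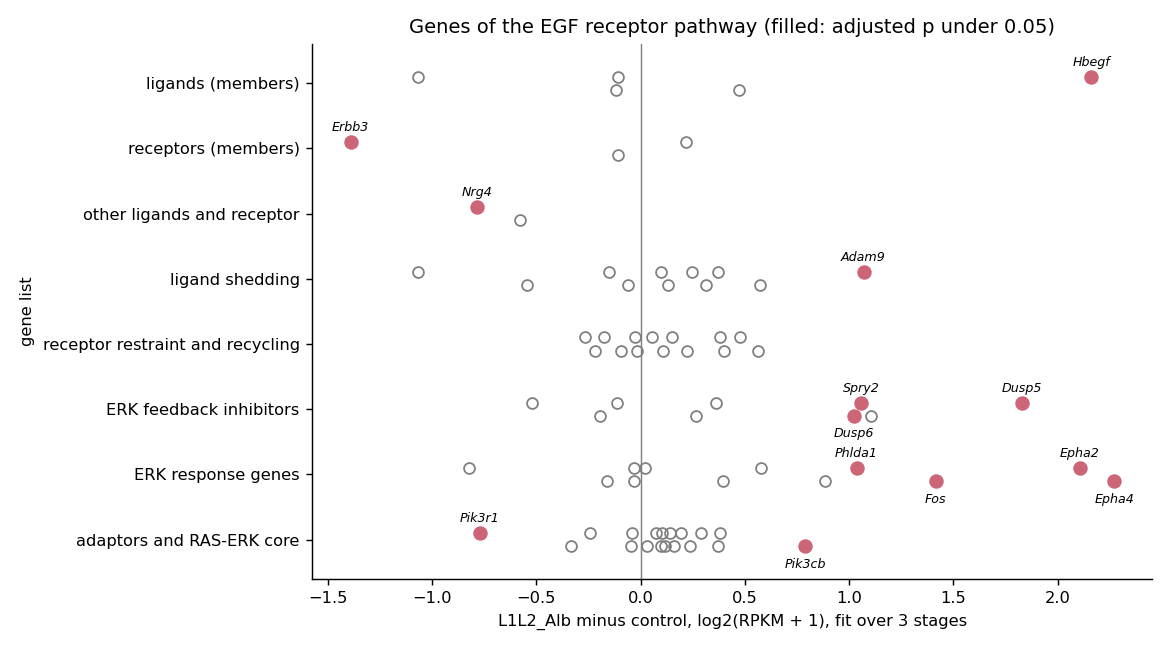
Difference of log2(RPKM + 1) between L1L2_Alb and control over the 3 stages for each gene tested, by gene list, with filled circles for an adjusted p under 0.05 (limma). Vertical offsets within a list only separate the points. The filled genes of the ERK feedback and response lists lie between 1.02 and 2.27, and *Erbb3*, *Nrg4* and *Pik3r1* are the filled genes below 0.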

How the data were processed

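RNA of 8 libraries (TruSeq kit, Illumina sequencing) was used as the authors deposited it, 1 RPKM value per gene and library, not scaled from library to library. That they are RPKM was read off short RNA genes, whose values moved in steps of 1 read and gave each library's total reads. The submitters' processing notes name Bowtie 0.12.2 and build mm8, and the counting method and annotation are not given in the sources used here. 4 entries of 2 repeated symbols were left out. No count model was run.

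Values were taken as log2(RPKM + 1), and limma 3.58.1 (R 4.3.3, eBayes with trend) was run on the 13421 genes whose mean reached 1 RPKM. Genotype and stage were terms of an additive model with 4 residual degrees of freedom. The contrast of L1L2_Alb iBEC with iHP and the F test of a difference between stages used the 6 conditions (2 residual degrees of freedom). All tests were two-sided, Benjamini-Hochberg adjusted, with a threshold of 0.05. The procedure was tested on simulated data. The members and lists were chosen with earlier results of these data known. Genes named are the members, *Lats1* and *Lats2*, each called gene of a pathway list or otherwise its largest change, and the 3 genes most like *Hbegf* and *Erbb3*. *Ctgf*, *Cyr61*, the chromosome 5 neighbours and other list members were named besides. *Hras*, *Spry3* and *Adgre1* were not analysed here. The alternatives were a pseudocount of 0.1, upper-quartile scaling (percentile 75), quantile normalization, no filter, a minimum mean of 5 RPKM and eBayes with no trend. Further alternatives were the mean of the 2 libraries of a condition, a replicate block, and leaving out each library. Single values of some listed genes are not reported here.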

Additional observations from a re-analysis of the deposited data

Results flagged for a closer look

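In 3 genes all L1L2_Alb libraries of a stage moved one way from their control and all those of another stage the opposite way. The share of all genes that meet this rule was not counted, so the number is not a result about the family. *Egfr* had a mean log2 difference of 1.25 in iHB, -0.19 in iHP and -1.05 in iBEC. *Areg* had -0.57 in iHB, -0.49 in iHP and 0.59 in iBEC. *Tgfa* had -0.073 in iHB, -0.38 in iHP and 0.13 in iBEC, and the value in iBEC was below the shift of 0.25 that all genes showed there. Each rests on 1 control and at most 2 L1L2_Alb libraries a stage. The difference between stages did not pass limma's F test in any of them, with an adjusted p of 0.653 for *Egfr* and of 1.00 for *Areg* and *Tgfa*, and 0 of all genes tested passed it, against 5.46% at an unadjusted p under 0.05. No condition had the 4 libraries that a search for single aberrant libraries needs.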

How the results depend on the processing

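*Hbegf* was called for genotype in all 15 alternatives. The number of the 8 genes called for genotype was 1 in place of 2 with a pseudocount of 0.1, with no filter and with eBayes without trend. It was also 1 with the mean of the 2 libraries of a condition, and 1 to 3 when each library was left out. Over all genes it was 686 with no filter and 205 to 1695 when each library was left out (330 without control iHB, 317 without L1L2_Alb iHB, 205 without control iHP, 844 without L1L2_Alb iHP replicate 1, 793 without L1L2_Alb iBEC replicate 2). Of the 1284 calls 64.8% were higher, against 49.2% with upper-quartile scaling (586 higher, 605 lower) and 53.1% with quantile normalization (687 and 607), where the shift of 0.25 in iBECs fell to 0.02 and -0.005. For iBEC against iHB the 3 genes became 1 with no filter and 1 with a mean of at least 5 RPKM, and 0 to 4 when a library was left out, with 492 of all genes with no filter and 99 to 1739 when a library was left out (99 without L1L2_Alb iHB, 176 without control iHB, 488 without L1L2_Alb iBEC replicate 2, 1739 without L1L2_Alb iHP replicate 2). For iHP against iHB all genes gave 3 with upper-quartile scaling, 4 with a mean of at least 5 RPKM and 0 to 55 when a library was left out (55 without control iHP, 29 without control iBEC). For L1L2_Alb iBEC against iHP the 3 genes and the 492 of all genes both became 0 with no filter, and 0 to 0 and 0 to 126 when a library was left out. The difference between stages gave 0 in each of 6 alternatives. With a mean of at least 5 RPKM, *Btc*, at a mean of 4.42 RPKM, was left out and not tested. Of the iBEC against iHB calls only that of *Areg* failed there (limma adjusted p = 0.0553). The cause of the other moves was not tested.

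The sign of *Tgfa* in iBEC against iHB turned to 0.0091 with upper-quartile scaling and 0.015 with quantile normalization. That of *Egfr* for genotype turned to 0.0045 with the mean of the 2 libraries of a condition. When a library was left out, signs turned for genotype in *Areg* (-0.53 to 0.094), *Ereg* (-0.027 to 0.92), *Tgfa* (-0.25 to 0.044) and *Egfr* (-0.62 to 0.43), for iHP against iHB in *Areg* (-0.26 to 0.36) and *Egfr* (-0.45 to 1.42), for iBEC against iHB in *Egfr* (-0.82 to 1.05), and for L1L2_Alb iBEC against iHP in *Erbb2* (-0.49 to 0.36). A lone library left in a condition was taken to vary like the others.

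With the replicate block, L1L2_Alb iBEC against iHP called 911 genes and 4 of the 8, *Ereg* among them (limma adjusted p = 0.0203). The differences between replicates 1 and 2 in iHPs and in iBECs had a correlation of -0.02 over genes. That value cannot decide whether libraries of the same number share an origin, which the labels do not give.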

Other observations

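Other marker lists were examined too, beside 6.2% of all genes called higher and 3.37% called lower. Of 6 biliary markers tested, the keratin genes *Krt7* and *Krt19* rose by 2.17 and 1.31 on the log2 scale (limma adjusted p = 0.0042 and 0.0205), each higher than its control in 5 of 5 L1L2_Alb libraries. The osteopontin gene *Spp1* was lower, with a mean of 9388 RPKM in control and 4066 RPKM in L1L2_Alb libraries (limma adjusted p = 0.0306), and did not pass with quantile normalization (adjusted p = 0.0696). Of 3 erythroid markers tested, the beta globin genes *Hbb-b1* and *Hbb-b2* differed by -2.09 and -2.44 on the log2 scale (limma adjusted p = 0.0335 and 0.036). They have nearly identical sequences, so reads may be split between the copies. Of 3 endothelial markers tested 0 passed in limma. At an unadjusted p under 0.05, 2 passed (*Pecam1*, lower, and *Kdr*, higher), against 26.3% of all genes. With quantile normalization 1 (*Kdr*) passed (limma adjusted p = 0.0434).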
